A study of Mus musculus with 16 samples.

Results

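The genes described here encode 9 enzymes of the citric acid cycle: Cs, Idh2, Idh3a, Idh3b, Idh3g, Ogdh, Suclg1, Fh1 and Mdh2. They were chosen by gene symbol, by a rule that used no measured value but with earlier results of these data known, and all 9 were found among the 11710 genes of the count table and passed the filter on low counts. Messenger RNA was sequenced from rotator cuff muscle of 2 inbred mouse strains, C57BL/6J (BL6 below) and MRL/MpJ (MRL below). In each strain 4 samples came from unoperated controls and 4 from muscle that had undergone tenectomy, the removal of its tendon, together with denervation, the loss of its nerve supply (called operated below). The labels name no transgene or drug for any group and give no age, sex or time after surgery. The muscle is the infraspinatus in the design text and the supraspinatus in the sample labels. Nothing in the labels says that the samples of a group came from separate animals, so p-values measure only the spread between these samples.

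The citric acid cycle runs in the mitochondrial matrix and oxidises acetyl groups from carbohydrate, fat and amino acids, passing electrons to the respiratory chain. Muscle fibres with many mitochondria hold much of its enzymes, and citrate synthase activity is a common measure of the mitochondrial content of muscle. Citrate synthase (Cs) carries out the entry step. Isocitrate is then oxidised by an NAD-linked enzyme assembled from Idh3a, Idh3b and Idh3g, or by the NADP-linked enzyme Idh2. The later steps described here belong to the oxoglutarate dehydrogenase complex (Ogdh), succinyl-CoA ligase (Suclg1), fumarase (Fh1) and malate dehydrogenase (Mdh2).

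RefSeq promoter windows (build GRCm38.p6) were matched for 8 of the 9 genes, all but Idh3a. Ogdh has 6 windows, for different annotated starts, and the other genes 1 each. Shown here are the 250 bases before the start of Cs and before the most upstream start of Ogdh, genes which fell together after surgery in BL6, and before that of Fh1, which did not pass the test. These 3 windows hold no annotated exon. Capitals mark matches on either strand to the CCAAT box, to the GC box (GGGCGG) or to the cyclic AMP response element (TGACGTCA), and each sequence reads 5′ to 3′ along its gene.
Cs, chr10:128337477-128337726, plus strand: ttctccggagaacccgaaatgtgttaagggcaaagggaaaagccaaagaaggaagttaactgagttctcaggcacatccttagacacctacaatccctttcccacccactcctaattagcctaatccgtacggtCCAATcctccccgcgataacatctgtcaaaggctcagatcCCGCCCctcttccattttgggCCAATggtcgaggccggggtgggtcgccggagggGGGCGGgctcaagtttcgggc
Ogdh, chr11:6291347-6291596, plus strand: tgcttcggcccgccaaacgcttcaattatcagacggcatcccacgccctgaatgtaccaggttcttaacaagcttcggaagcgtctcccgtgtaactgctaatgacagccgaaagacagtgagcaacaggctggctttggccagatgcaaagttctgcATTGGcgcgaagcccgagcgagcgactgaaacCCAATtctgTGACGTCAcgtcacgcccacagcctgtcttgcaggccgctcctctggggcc
Fh1, chr1:175625636-175625885, minus strand: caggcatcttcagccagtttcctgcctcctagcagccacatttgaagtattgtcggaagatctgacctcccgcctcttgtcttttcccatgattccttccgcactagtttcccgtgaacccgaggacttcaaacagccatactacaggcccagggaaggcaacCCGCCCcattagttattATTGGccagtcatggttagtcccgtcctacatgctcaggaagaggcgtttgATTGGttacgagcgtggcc
CCAAT, found in 33.8% of 32851 RefSeq windows of this length, matched Cs, Idh2, Idh3b, Ogdh and Fh1. GGGCGG, in 32.7% of windows, matched Cs, Idh2, Fh1 and Mdh2, and Ogdh only in windows of later starts, not in the one printed. TGACGTCA, in 1.55%, matched Ogdh and Mdh2. These shares are per window, and Ogdh counted as matched where any of its windows held the letters. Motifs of factors known to act on mitochondrial genes had no match in any of the 8 genes: TNAAGGTCA of the estrogen-related receptors (1.14% of windows), the palindromic NRF-1 motif (0.782%) and CCGGAAGT of GABP (2.88%). An absent match says only that these letters are not in these windows, and the CCAAT and GC boxes are common among promoters at large.

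Total counts per sample ranged from 24323862 to 43552964, and the lowest count of any member in a sample was 4941, for Idh2. The 13 mitochondrially encoded genes took 12.2% to 14.2% of counts in unoperated BL6, 17.4% to 23.8% in operated BL6 and 11% to 11.6% in unoperated MRL. In operated MRL they took 11.8% in sample 4 and 20.1% to 24.9% in the others. Muscle fibre markers were high in all samples. Operated BL6 sample 4 stood apart, with the lowest summed fibre markers, 54741 CPM (counts per 1000000 counts, scaled by trimmed mean of M values factors, TMM) against 82258 to 138828 in the other operated BL6 samples. It also had the highest summed fibroblast markers, 5683 CPM against 793 to 1508, and the lowest value of its group in all 9 members. Operated MRL sample 3 was the lowest of its group in 8 of 9 members. It held 5736 CPM of summed erythroid markers against 719 to 1054 in the other operated MRL samples. Over all genes, operated MRL sample 4 was least like its group, with a chi-square of counts per degree of freedom of 233 to 301. Pairs among samples 1 to 3 had 44 to 64. Sample 4 held 323 CPM of summed endothelial markers against 666 to 809, and 63 CPM of Schwann cell markers against 83 to 228. Its summed fibroblast markers, 3003 CPM, were nearly level with the 2981 CPM of operated MRL sample 3, against 1446 and 1498 in the others of the group. In whole tissue, fewer cells of a type and less RNA per cell cannot be told apart.

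In BL6, surgery lowered 4 of the 9 members, Cs, Idh3a, Idh3b and Ogdh, by 0.47 to 0.95 on the log2 scale, and raised none. These 4 were also the members in which every operated sample lay below every unoperated one. The remaining 5 did not pass an adjusted p of 0.05 by the edgeR quasi-likelihood test, and their estimates ran from -0.43 to 0.09. In this comparison 67.9% of the 11709 genes tested were called, 35.1% higher and 32.8% lower, and 29.2% were lower without overlap between the groups. The median log2 fold change of the members was -0.43, beside 0.04 over all genes. In MRL, Cs alone was called, lower by 0.56, where 45% of all genes were called, 22.3% higher and 22.7% lower. The median of the members in MRL was -0.20, beside 0.01 over all genes.

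**Figure D1:**
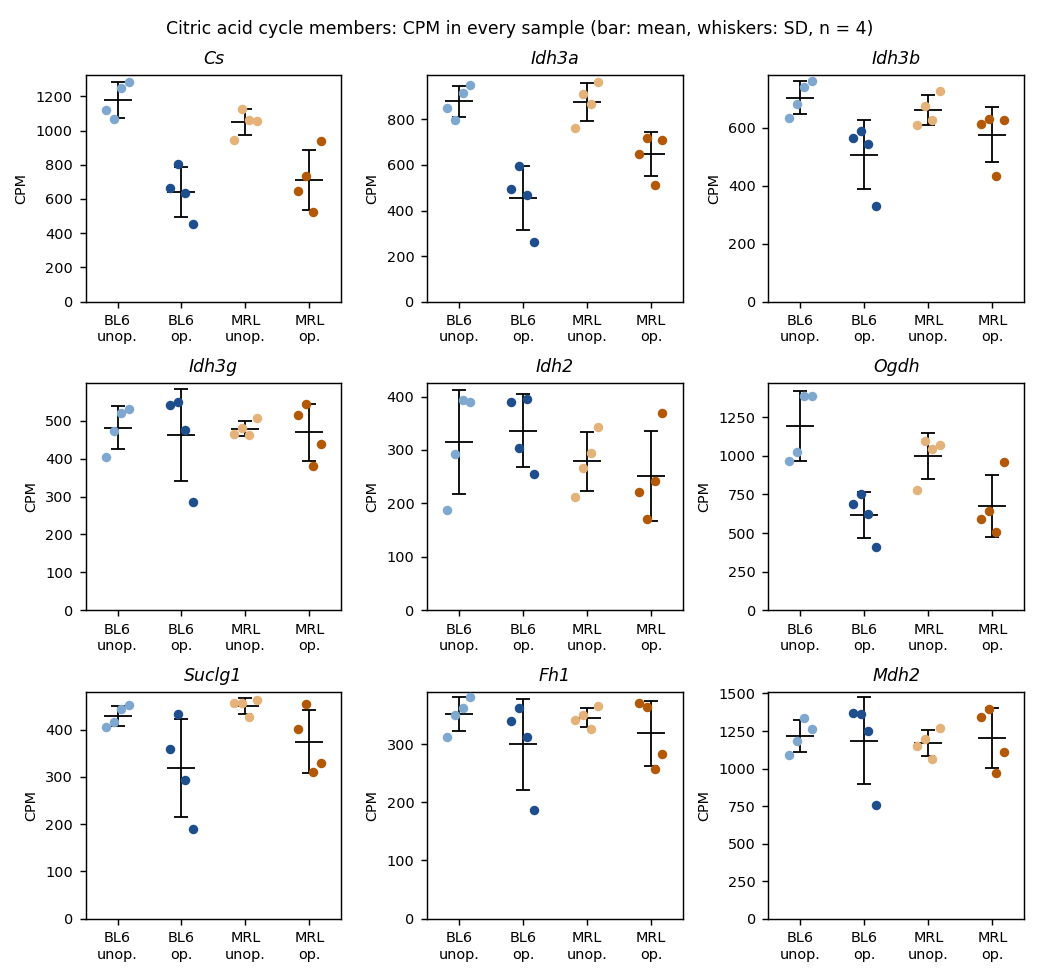
TMM-scaled CPM (vertical axes, from 0) of the 9 members in every sample of the 4 groups; points are samples, bars are means and whiskers are SDs (n = 4). In Cs, Idh3a, Idh3b and Ogdh the operated BL6 samples (dark blue) all sit below the unoperated ones (light blue), while in Idh3g, Idh2, Fh1 and Mdh2 the groups share their range.

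Cs (ENSMUSG00000005683; chromosome 10, 128337734 to 128362479 of GRCm38), citrate synthase, condenses acetyl-CoA with oxaloacetate. Its level in unoperated BL6 was 1119.5, 1066, 1249 and 1286 CPM in samples 1 to 4, and in operated BL6 665, 807, 632 and 455 CPM. The groups did not overlap, and the means were 1180.0 ± 104 and 639.7 ± 145 CPM (SD, n = 4). Its log2 fold change was -0.88 (SE 0.18), adjusted p 0.000714 by the edgeR quasi-likelihood test. In MRL, unoperated samples held 944, 1127, 1064 and 1056 CPM, and operated samples 649, 734, 522 and 937 CPM. All operated MRL samples lay below all unoperated ones, but sample 4, the one with the low mitochondrial share, was close to the lowest control. The MRL log2 fold change was -0.56 (SE 0.18, adjusted p 0.0227 in the same test). The MRL call was lost without unoperated sample 2, operated sample 1 or operated sample 3, with adjusted p up to 0.0800. Csl, at 91.9% identity over 1522 bases, and Gm48254 are near copies of Cs, and their share of reads could not be separated here.

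The 3 subunits of NAD-linked isocitrate dehydrogenase did not change by the same amount. Idh3a (ENSMUSG00000032279; chromosome 9, 54586334 to 54604661) encodes the catalytic alpha subunit. It held 849, 797, 917 and 953 CPM in unoperated BL6 and 496, 595, 467 and 263 CPM in operated BL6. All operated values were lower, and the log2 fold change of -0.95 (SE 0.20) had an adjusted p of 0.00069 by the edgeR quasi-likelihood test. In MRL it held 764, 912, 868 and 962 CPM in unoperated and 649.9, 720.4, 511 and 710.1 CPM in operated muscle. These MRL groups did not overlap either, as in 16.7% of all genes that were lower in this way. The MRL estimate of -0.44 (95% interval -0.85 to -0.02) nevertheless had an adjusted p of 0.0792. It passed the threshold with total-count scaling, with DESeq2, with a fit of the MRL groups alone and without operated BL6 sample 4, which enters through the shared estimate of spread.

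Idh3b (ENSMUSG00000027406; chromosome 2, 130279309 to 130284547) encodes the beta subunit, which is needed for assembly and regulation of the enzyme. Unoperated BL6 samples held 633, 683, 739.8 and 762 CPM and operated ones 566, 590.4, 544 and 332 CPM. The groups were separate, but operated samples 1, 2 and 3 lay closer to the lowest control than to operated sample 4. Its log2 fold change was -0.47 (SE 0.17, adjusted p 0.0237 by the edgeR quasi-likelihood test). Without operated BL6 sample 4 it was -0.32 with an adjusted p of 0.0482, and the call was lost without unoperated BL6 sample 3 or 4, with adjusted p up to 0.0608. In MRL it went from 660.4 ± 51.9 to 576 ± 95 CPM (SD, n = 4), with overlapping groups. The log2 fold change there was -0.20 (95% interval -0.56 to 0.17, adjusted p 0.355). Idh3b shares 5 exon bases with its neighbour Nop56 on the other strand.

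Idh3g (ENSMUSG00000002010; chromosome X, 73778963 to 73786897) encodes the gamma subunit, through which the enzyme responds to allosteric regulators. Unoperated BL6 samples held 404, 473, 522 and 531 CPM, and operated ones 541, 549, 476 and 287 CPM. In BL6 the 2 highest samples of all were operated, and the lowest, sample 4, was operated too. The log2 fold change was -0.06 with a 95% interval from -0.44 to 0.32, and it was 0.11 without operated sample 4. In MRL the means were 479 ± 20.2 and 469.8 ± 74.5 CPM (SD, n = 4), with a log2 fold change of -0.03 (95% interval -0.41 to 0.35). Neither strain passed the test (adjusted p 0.780 and 0.902 by the edgeR quasi-likelihood test).

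Idh2 (ENSMUSG00000030541; chromosome 7, 80094846 to 80115392) makes mitochondrial NADPH in place of NADH and varied most among controls. Unoperated BL6 samples held 187, 292, 394 and 389 CPM, a coefficient of variation of 30.9%, and operated ones 389.6, 303, 395 and 255 CPM. The BL6 log2 fold change was 0.09 (95% interval -0.46 to 0.64, adjusted p 0.766 by the edgeR quasi-likelihood test). In MRL the unoperated values were 211, 266, 295 and 342 CPM and the operated ones 222, 171, 241 and 370.0 CPM. The groups overlapped throughout, and the MRL estimate was -0.15 (95% interval -0.70 to 0.40, adjusted p 0.648). Single samples moved both estimates: in BL6 from -0.10 without unoperated sample 1 to 0.22 without unoperated sample 3, and in MRL from 0.00 without operated sample 2 to -0.40 without operated sample 4.

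Ogdh (ENSMUSG00000020456; chromosome 11, 6291633 to 6356642) encodes the substrate-binding subunit of the oxoglutarate dehydrogenase complex, a calcium-sensitive control point of the cycle. It held 969, 1022, 1391 and 1389 CPM in unoperated BL6 and 689, 755, 622 and 411 CPM in operated BL6. All operated samples were lower, and the log2 fold change was -0.95 (SE 0.22), adjusted p 0.00182 by the edgeR quasi-likelihood test. Unoperated MRL samples held 778, 1096, 1047 and 1073 CPM, and operated ones 592, 642, 506 and 963 CPM. Here the groups overlapped, through a low control, sample 1, and a high operated sample, sample 4. The MRL estimate of -0.56 (SE 0.22) was as large as that of Cs but had an adjusted p of 0.0507. It passed under 9 of 24 alternatives, and without operated MRL sample 4 it was -0.79 with an adjusted p of 0.00576.

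Suclg1 (ENSMUSG00000052738; chromosome 6, 73248382 to 73276911) encodes the alpha subunit shared by both forms of succinyl-CoA ligase, the step that makes ATP or GTP directly. In BL6 it held 406, 415, 443 and 452 CPM without surgery and 359, 434, 294 and 189 CPM with it. Operated sample 2 lay among the controls, and the other 3 lay below them. The log2 fold change was -0.43 (95% interval -0.84 to -0.02), with an adjusted p of 0.0618 by the edgeR quasi-likelihood test. It passed in 5 of 24 alternatives: total-count scaling, DESeq2, limma-voom, a block for the replicate number, and without operated BL6 sample 2. Without operated BL6 sample 4 it was -0.25 with an adjusted p of 0.142. In MRL the means were 450.1 ± 16.5 and 374 ± 66.5 CPM (SD, n = 4), and the log2 fold change was -0.27 (95% interval -0.68 to 0.15, adjusted p 0.266). The spread among operated samples exceeded that among controls in both strains.

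Fh1 (ENSMUSG00000026526; chromosome 1, 175600374 to 175625635), fumarase, hydrates fumarate to malate. It held 312, 350.1, 362 and 380.3 CPM in unoperated and 339, 362, 311 and 186 CPM in operated BL6. Apart from operated sample 4 the groups nearly coincided, and the log2 fold change of -0.23 (95% interval -0.61 to 0.15) became -0.06 without that sample. In MRL the means were 345 ± 16.5 without and 318 ± 56.4 CPM with surgery (SD, n = 4), and the log2 fold change was -0.12 (95% interval -0.49 to 0.26). The adjusted p was 0.259 in BL6 and 0.599 in MRL by the edgeR quasi-likelihood test.

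Mdh2 (ENSMUSG00000019179; chromosome 5, 135778480 to 135790398), the mitochondrial malate dehydrogenase, regenerates oxaloacetate and also takes part in the malate-aspartate shuttle. It held 1089, 1186, 1336 and 1263 CPM in unoperated and 1372, 1364, 1249.9 and 759 CPM in operated BL6. The 2 highest BL6 samples were operated, and only operated sample 4 lay below the controls. The log2 fold change was -0.04 (95% interval -0.41 to 0.34, adjusted p 0.855 by the edgeR quasi-likelihood test), and 0.12 without that sample. In MRL, unoperated samples held 1150.2, 1194, 1062 and 1269 CPM and operated ones 1342, 1398, 969.8 and 1109 CPM. The MRL estimate was 0.04 (95% interval -0.33 to 0.42, adjusted p 0.851).

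The strains were compared directly in 3 ways, and none of the 9 members was called in any of them. Among unoperated samples, where 10.4% of all genes were called, the members' log2 differences of MRL against BL6 ran from -0.26 (Ogdh) to 0.07 (Suclg1). No member reached an unadjusted p of 0.05 there with edgeR, DESeq2 or limma-voom. Among operated samples, where 12.9% of all genes were called, they ran from -0.42 (Idh2) to 0.51 (Idh3a). Idh3a was the 1 member with an unadjusted p under 0.05 there, 455 ± 139 CPM in BL6 against 648 ± 96.3 in MRL (SD, n = 4). Its 95% interval was 0.09 to 0.93 and its adjusted p 0.105 by the edgeR quasi-likelihood test, and it passed with total-count scaling and without operated BL6 sample 2. DESeq2 and limma-voom called no member in the operated samples either.

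The interaction asks whether the effect of surgery differed between strains, and 0.248% of all genes were called. No member reached an unadjusted p of 0.05 with edgeR, DESeq2 or limma-voom. The estimate was positive, a less negative or more positive change in MRL, in 8 of 9 members. The median of the members was 0.16, beside -0.01 over all genes. These signs were not all stable. On leaving out single samples the estimate reached -0.13 for Idh3g, -0.07 for Mdh2, -0.05 for Fh1 and -0.015 for Suclg1. The members also share their samples, and operated BL6 sample 4 was the lowest of its group in all 9. For Idh3a the estimate was 0.51 (95% interval -0.07 to 1.1, adjusted p 0.367 by the edgeR quasi-likelihood test). For Cs it was 0.32 (95% interval -0.23 to 0.87) and for Ogdh 0.38 (95% interval -0.29 to 1.05). The calls of Idh3a, Idh3b and Ogdh in BL6 and their absence in MRL are therefore not shown to be a difference between strains, and the intervals include no difference as well as sizes near that of the BL6 effects.

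Ratios between members within a sample do not depend on how libraries are scaled. In unoperated muscle Idh3g stood at a log2 ratio to Idh3a of -1.07, -0.75, -0.81 and -0.85 in BL6 and -0.71, -0.92, -0.91 and -0.92 in MRL. After surgery it stood at 0.12, -0.12, 0.03 and 0.12 in BL6 and -0.34, -0.40, -0.43 and -0.69 in MRL. All operated BL6 samples lay above all controls, and so did the MRL ones except that sample 4 was only 0.02 above its highest control. As linear ratios of counts the group values moved from 0.547 to 1.03 in BL6 and from 0.549 to 0.725 in MRL. The log2 ratio rose by 0.91 in BL6 and 0.40 in MRL, each with p = 0.0286 in a two-sided exact permutation test, the smallest 4 against 4 samples allow, and 0.0457 after adjustment over 8 ratio tests.

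The log2 ratio of Idh3b to Idh3a rose from -0.32 ± 0.08 to 0.18 ± 0.14 in BL6 and from -0.41 ± 0.06 to -0.17 ± 0.06 in MRL (SD, n = 4), with the same exact permutation p of 0.0286 and adjusted p of 0.0457. Thus both regulatory subunits stood higher relative to the catalytic subunit in all 4 operated samples of each strain than in any control of that strain. How many other genes stand apart from Idh3a in this way was not counted, so the separation is not shown to be particular to these subunits. The ratio of Idh2 to Idh3a rose from -1.54 ± 0.44 to -0.40 ± 0.40 in BL6 (SD, n = 4; exact permutation p = 0.0286, adjusted 0.0457). In MRL it went from -1.67 ± 0.17 to -1.41 ± 0.51 and did not pass (exact permutation p = 0.343, adjusted 0.457). Ogdh and Cs kept close to each other, with log2 ratios between -0.28 and 0.16 in unoperated samples, and the operated ratio differed by -0.05 in BL6 and by less than 0.01 in MRL (exact permutation p 0.600 and 0.943). All ratio tests that passed have Idh3a as the denominator, and Idh3a was itself lower after surgery without overlap in both strains. They are therefore not independent results. Their adjusted exact permutation p of 0.0457 rests on several tests tied at the smallest possible p. Whether any ratio shifted more in one strain than in the other was not tested.

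**Figure D2:**
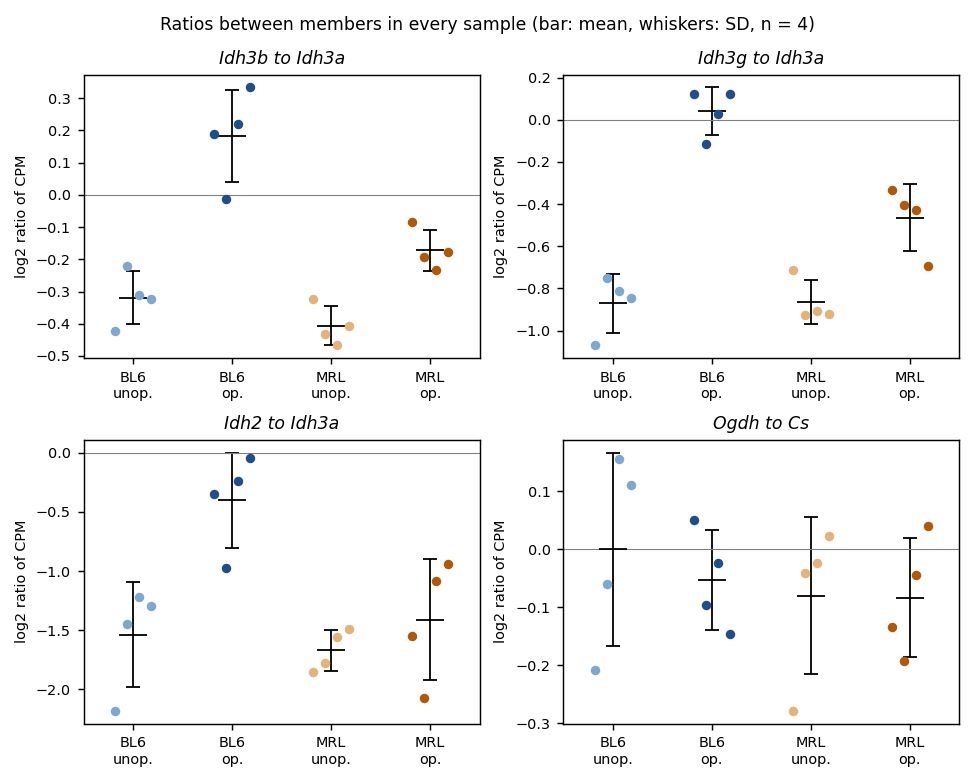
Log2 ratio of CPM (vertical axes) for 4 pairs of members in every sample of the 4 groups; points are samples, bars are means and whiskers are SDs (n = 4). Operated samples lie above unoperated ones for Idh3b and Idh3g relative to Idh3a in both strains and for Idh2 relative to Idh3a in BL6, and the groups overlap for Ogdh relative to Cs.

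Transcript length moved with these differences. Over the 11227 genes with an annotated coding transcript, the median log2 fold change in BL6 was 0.76 for 398 genes with up to 1000 exon bases and 0.34 for 2057 genes of 1000 to 2000 bases. It was 0.09 for 2256 genes of 2000 to 3000 bases, -0.08 for 3524 genes of 3000 to 5000, and -0.30 for 2992 longer ones. In MRL the corresponding medians were 0.43, 0.14, 0.00, -0.04 and -0.11. Spearman's rho between length and log2 fold change across these genes was -0.31 in BL6 and -0.19 in MRL, a description of genes that share the same libraries. Among the members, Idh3g (1331 bases), Mdh2 (1456), Suclg1 (1519), Idh3b (1616) and Idh2 (1745) are short, and Idh3a (2580), Fh1 (2636), Cs (2926) and Ogdh (4449) are long. Of the 4 members called in BL6, 3 are thus among the 4 long ones.

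When the median of all genes within 10% of the same length was subtracted, an alternative chosen after seeing the data and carrying no test, all 9 members had negative values in both strains. In BL6 they ran from -1.04 for Idh3a to -0.15 for Idh2, with Cs at -0.91, Ogdh at -0.82, Idh3b and Suclg1 each at -0.77, Idh3g at -0.45, Mdh2 at -0.39 and Fh1 at -0.29. Suclg1 then stood beside Idh3b, and Idh3g and Mdh2 moved to these values from estimates near 0. In MRL they ran from -0.55 for Cs to -0.09 for Mdh2. The shift in the Idh3g to Idh3a ratio, taken as the difference of the fitted fold changes, went from 0.89 to 0.59 in BL6 and from 0.41 to 0.25 in MRL. That of Idh2 to Idh3a in BL6 went from 1.04 to 0.89, and that of Idh3b to Idh3a from 0.48 to 0.26. The part of length in the ratios and calls was not tested.

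**Figure D3:**
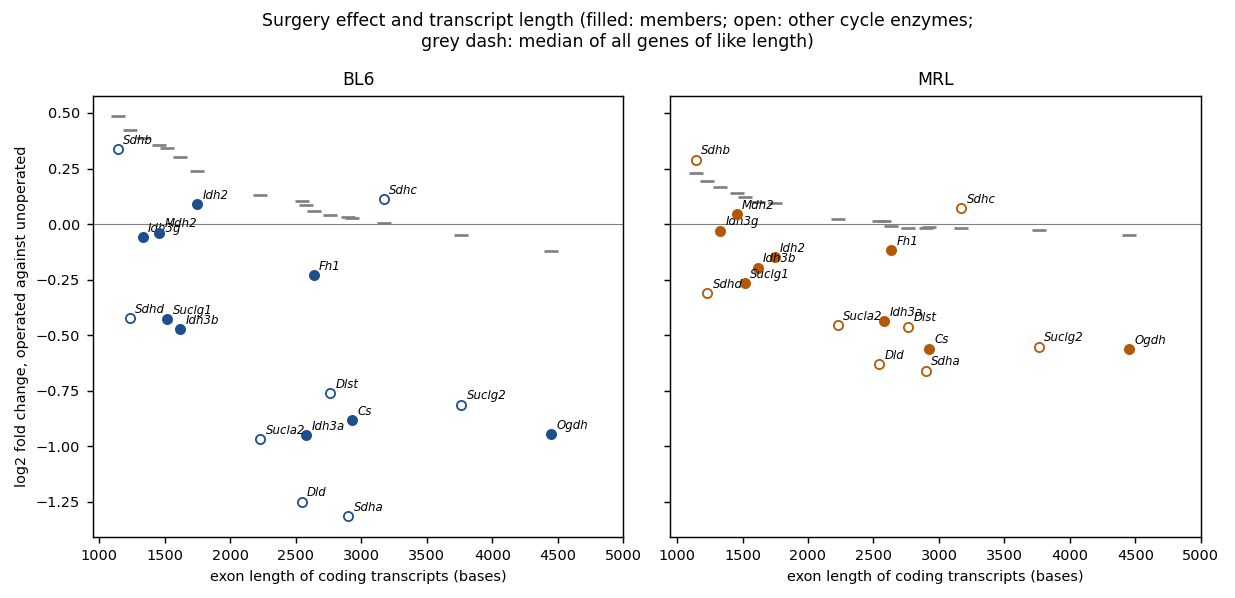
Log2 fold change of operated against unoperated muscle (vertical axis) against the exon length of coding transcripts in bases (horizontal axis) for the 9 members (filled) and 8 further subunits of cycle enzymes (open), with BL6 on the left and MRL on the right. Each grey dash is the median of all tested genes within 10% of the length of the gene at that position; the dashes fall from left to right, and all members lie below their dash in both strains.

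Levels of different genes were compared per 1000 bases of exon. In unoperated BL6 the order was Mdh2 at 837 ± 72.6 CPM per kb (SD, n = 4), Idh3b at 436 ± 35.9, Cs at 403 ± 35.7, Idh3g at 362 ± 43.5, Idh3a at 341 ± 27, Suclg1 at 282 ± 14.3, Ogdh at 268 ± 51.4, Idh2 at 181 ± 55.9 and Fh1 at 133 ± 11. Mdh2, at 748 to 917 CPM per kb, lay above every other member without overlap. Neighbours from Idh3b to Idh3a overlapped in their ranges, as did Suclg1 with Ogdh, Ogdh with Idh2, and Idh2 with Fh1. After surgery in BL6, Mdh2 stayed at 815 ± 199 CPM per kb and Idh3g (348 ± 91.7) and Idh3b (314 ± 73.7) came next, ahead of Cs (219 ± 49.5). The ranges of Idh3g (215 to 412) and Idh3b (205 to 365) overlapped that of Cs (155 to 276). Idh3a (176 ± 54) then stood below Idh2 (192 ± 39.1), though these ranges overlapped.

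A further 8 subunits of cycle enzymes were analysed, and 6 fell in BL6 and 4 in MRL, with none higher. Of all genes, 32.8% were lower in BL6 and 22.7% in MRL. The median log2 fold change of the 8 was -0.79 in BL6 and -0.46 in MRL, beside 0.04 and 0.01 over all genes. Sdha, the flavoprotein of succinate dehydrogenase, fell by 1.32 and 0.66 on the log2 scale in BL6 and MRL. Dld, the lipoamide dehydrogenase shared with the pyruvate dehydrogenase complex, fell by 1.25 and 0.63, and Dlst, the core subunit that sits with Ogdh in its complex, fell by 0.76 and 0.46. Suclg2, the GTP-specific beta partner of Suclg1, fell by 0.81 and 0.55. Sucla2, the ATP-specific one, fell by 0.97 in BL6, and in MRL its estimate was -0.46 with an adjusted p of 0.0571 by the edgeR quasi-likelihood test.

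The subunits of succinate dehydrogenase also had unlike estimates, a difference that was not tested. Beside the falls of Sdha, its iron-sulfur subunit Sdhb had estimates of 0.34 and 0.29 in BL6 and MRL and its membrane anchor Sdhc 0.11 and 0.07, none of them called. Sdhd, the other anchor, fell by 0.42 in BL6 and was at -0.31 in MRL (adjusted p 0.112 by the edgeR quasi-likelihood test). Across these 17 genes of the cycle, Spearman's rho between exon length and log2 fold change was -0.47 in BL6 and -0.57 in MRL, again a description.

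**Figure D4:**
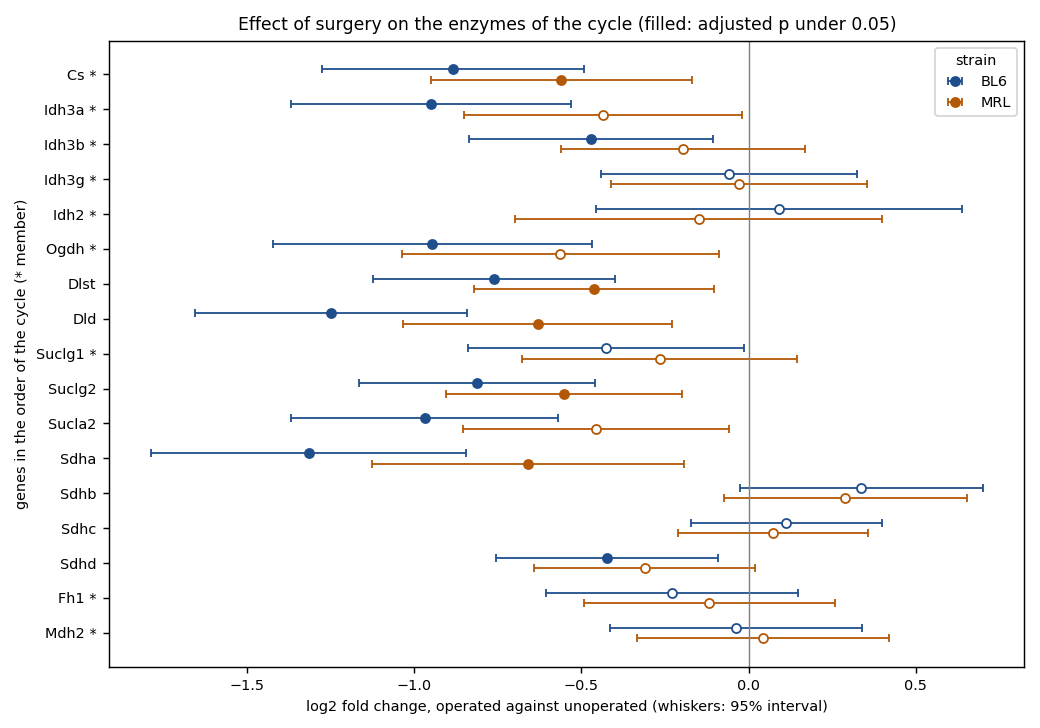
Log2 fold change of operated against unoperated muscle (horizontal axis) for 17 genes in the order of the cycle (vertical axis; asterisks mark the 9 members), with 95% intervals from edgeR as whiskers, BL6 in blue and MRL in orange. Filled points passed an adjusted p of 0.05: 4 members and 6 other genes in BL6, and Cs and 4 other genes in MRL, all to the left of 0.

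Of 14 enzymes that link the cycle to other pathways or are its cytosolic forms, 4 rose and 5 fell in BL6, and 3 rose and 4 fell in MRL, with medians of -0.11 and -0.18. These counts are near the shares of all genes, 35.1% higher and 32.8% lower in BL6 and 22.3% and 22.7% in MRL. Pck1 and Pck2, which draw oxaloacetate off to phosphoenolpyruvate, rose by 3.52 and 1.15 in BL6 and by 3.06 and 1.04 in MRL on the log2 scale. Acly, which splits exported citrate for lipid synthesis, rose by 1.19 and 0.93. Me1, the cytosolic malic enzyme, fell by 1.03 and 0.70. Pck1 varied widely among operated samples, from 12.7 to 117 CPM in BL6 and from 14.9 to 175 CPM in MRL. Its controls reached 7.63 CPM in BL6 and 17.1 CPM in MRL, so the MRL groups overlapped. All 5 adipocyte markers analysed (Adipoq, Plin1, Fabp4, Cfd and Cidec) rose in both strains. Their summed level went from 221 to 307 CPM in unoperated to 1294 to 2221 in operated BL6, and from 271 to 394 to 1367 to 2002 in MRL. Most of this sum was Fabp4, on average 238 of 269 CPM in unoperated and 1319 of 1624 in operated BL6. In MRL it was 302 of 336 and 1444 of 1677 CPM. Operated MRL sample 4 had the lowest sum of its group, 1367 CPM, but the highest mean log2 CPM of the 5 markers, 7.12. The part of fat cells in the rises of Pck1, Pck2 and Acly and in the fall of Me1 was not tested.

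Among 15 genes for mitochondrial channels, import, chaperones and the nucleoid, 5 fell in each strain and 2, Tomm22 and Phb2, rose in BL6. The share that fell in BL6 was near that of all genes (32.8%), and 22.7% of all genes fell in MRL. The median of the list was -0.04 in BL6 and -0.16 in MRL. The genes called in both strains were all lower. The outer membrane channel Vdac1 fell by 1.23 in BL6 and 0.97 in MRL, the import receptor Tomm70a by 0.82 and 0.53, the matrix chaperone Hspa9 by 0.79 and 0.53, and the mitochondrial transcription factor Tfam by 0.83 and 0.56. Of 9 regulators of mitochondrial genes, 6 fell in BL6 and 5 in MRL, with none higher, beside the same shares of all genes (32.8% and 22.7%). Their median was -0.64 and -0.46, beside 0.04 and 0.01 over all genes. Ppara, the fatty acid sensing receptor, fell by 2.38 and 1.52, the coactivator Ppargc1b by 1.42 and 0.98, Gabpa by 1.06 and 0.40, and Ppard by 0.98 and 0.77.

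Of 8 muscle fibre markers, Ckm, Acta1, Myh4 and Atp2a1 fell in BL6 and Ckm, Acta1 and Atp2a1 in MRL, with none higher, where 32.8% and 22.7% of all genes were lower. The other markers (Mb, Myh1, Myh2 and Tnnt3) were called in neither strain, and Mb had estimates of 0.34 in BL6 and 0.40 in MRL. The median of the 8 was -0.49 in BL6 and -0.46 in MRL. Their summed level was 129644 to 182576 CPM in unoperated and 54741 to 138828 in operated BL6, and 116194 to 133023 and 71060 to 93695 in MRL. The members together held 0.590% to 0.647% of counts in unoperated and 0.399% to 0.518% in operated BL6, and 0.606% to 0.683% and 0.448% to 0.653% in MRL. Of all genes, 35.1% were higher in BL6 and 22.3% in MRL. Of the other cell types, 5 of 5 Schwann cell and 3 of 5 endothelial markers rose in BL6 and 4 of 5 of each in MRL. Macrophage and fibroblast markers rose in 3 of 6 genes each in BL6 and in none in MRL, and no erythroid marker of 4 was called. Unoperated MRL sample 1 stood apart, with 174.0 CPM of summed macrophage markers. The other unoperated MRL samples held 32.7 to 40.4 CPM and the operated ones 55.2 to 109.4 CPM. No macrophage or fibroblast marker was called in the interaction, so a difference between strains in these markers is not shown. The part of these cell types in the members' falls was not tested.

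By the pattern over the 16 samples, the genes most like the mean of the 9 members were Mrps5, Hibadh, Atp5a1, Prdx3 and Sdr39u1. Likeness was the root-mean-square difference of centred log2 CPM, and these 5 lay at 0.06 to 0.09 among 9618 genes ranked. Mrps5 encodes a mitochondrial ribosomal protein, Hibadh an enzyme of valine breakdown, Atp5a1 the alpha subunit of ATP synthase and Prdx3 a mitochondrial peroxidase. The members themselves lay between 0.05 (Idh3b) and 0.40 (Idh2) from their own mean, so Idh3b ran closest to the average member and Idh2 furthest from it. In the authors' deposited table, the members under a false discovery rate of 0.05 were Cs (-0.80), Idh3a (-0.85), Idh3b (-0.39) and Ogdh (-0.83) in BL6. In MRL that authors' deposited table has Cs (-0.66), Idh3a (-0.59) and Ogdh (-0.70), 2 members more than the fit described here.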

How the data were processed

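RNA was isolated from minced muscle, and libraries followed Illumina protocols, per the labels' protocols. The authors deposited whole-number counts per gene and sample with no normalization, per the file headers and values. They also deposited log2 fold changes, p-values and false discovery rates for 4 comparisons. FastQC, STAR, edgeR and the build mm10 are named, without versions, per the submitters' processing notes. Groups were taken from the strain and surgery given in the labels. The counting program and use of strand are not given in the sources used here.

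The counts were fitted with edgeR 4.0.16 in R 4.3.3 (TMM factors, filterByExpr at a minimum count of 10, quasi-likelihood fit with 1 mean per group over all 16 samples). The filter removed 1 gene and left 11709. P-values were adjusted by Benjamini-Hochberg over the 11709 genes; called means an adjusted p under 0.05. Per-sample log2 CPM used a prior count of 2. Ratios were tested by two-sided exact permutation of sample labels in SciPy 1.17.1. The members and gene lists were chosen with earlier results of these data known, so no list was tested. All members and the further cycle subunits analysed are named, 1 listed gene is not reported here, and of other lists, up to 4 genes called in both strains with the largest BL6 change are named. Tomm22 and Phb2 fall outside this rule and were picked with their values in view. The CCAAT box, GC box and cyclic AMP response element motifs, the length alternative and the windows printed were chosen after values had been seen. Gene positions and exon lengths (the union of exons of coding transcripts) are from GENCODE M21, GRCm38, and near copies were found with BLAST+ 2.17.0 at 90% identity over 200 bases. Alternatives were other scalings (edgeR RLE factors, total counts alone, without mitochondrially encoded genes), DESeq2 1.42.0, limma-voom (limma 3.58.1), no filter, a replicate block, only the groups compared, and leaving out each sample. The fit was tested on simulated data. The most alike pair of replicates differed with a chi-square of 14.8 per degree of freedom, so none were repeat reads of the same library, and all 16 were used. Separate libraries made from the same muscle cannot be recognised in this way. The marker Lep was not analysed here.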

Additional observations from a re-analysis of the deposited data

Results flagged for a closer look

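In 3 cases a value lay far from the other samples of its group, by the gap to the nearest sample relative to the range of the group. Idh3b in operated MRL sample 3 stood at 434 CPM against 613 to 631 in the other 3, and the same sample was the lowest of its group in 8 of 9 members. Ogdh in unoperated MRL sample 1 stood at 778 CPM against 1047 to 1096. In that same sample the log2 ratio of Idh3g to Idh3a was -0.71 against -0.92 to -0.91. In all, 52 groups of 4 values were screened, 36 of members and 16 of ratios, and about 5% would be marked by chance.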

How the results depend on the processing

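The members called in MRL numbered 1. They numbered 2 with RLE factors, total counts alone, limma-voom or without mitochondrially encoded genes, 3 with DESeq2 or the compared groups only, and 0 to 3 on leaving out each sample. The members called in operated MRL against BL6 went from 0 to 1 with total counts alone, and 0 to 1 on leaving out samples. Of all genes, the calls in MRL ran from 3490 (without operated MRL sample 3) to 6145 (without operated MRL sample 4) on leaving out each sample, against 5272. The interaction called 29 genes, 14 with total counts alone, 250 with DESeq2, 2 with a replicate block and 1 to 69 on leaving out each sample, with the highest without operated BL6 sample 2. Fitted with the compared groups alone, the strain comparison called 2438 genes unoperated (1216 otherwise) and 575 operated (1507 otherwise). The members called in BL6 ran from 3 to 5.

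Samples of the same number did not deviate together (correlations -0.47 to 0.45), so the numbers were not taken to pair them. With the replicate block 5 members were called in BL6, with Suclg1 added, and 1 in MRL. With sign exchange by number the ratio tests cannot go below p = 0.125, and with 1 sample left out the exact permutation p cannot go below 0.0571. Total-count scaling shifted the median of all genes to 0.18 in BL6 and to 0.15 between unoperated strains. The higher share of calls went from 51.7% to 60.2% in BL6, from 48.4% to 70.3% between unoperated strains and from 59.1% to 72.2% between operated ones. Of 720 member fold changes with a sample left out, 7 gained and 5 lost a call, and 32 changed sign with no call on either side. Of 351 under other settings, 13 gained a call, none lost one and 9 changed sign uncalled. No called fold change or ratio reversed. No setting varied the depth.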
